A study of Mus musculus with 8 samples.

Results

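Voltage-gated calcium and sodium channels are assembled from a pore protein and from auxiliary subunits that set where and how long the channel opens. The genes described here are all rows of the deposited table whose symbol begins with Cacna1, Cacna2d, Cacnb or Cacng, or is a numbered Scn symbol ending in a or b, with 3 genes left out. This gave 33 of the 18058 genes in the table, namely 9 calcium channel pores, 4 alpha2delta subunits, 4 calcium channel beta subunits, 6 gamma subunits, 7 sodium channel pores and 3 sodium channel beta subunits. Counts, medians and shares of a subunit class cover these genes. All 33 passed the filter on low values, a mean of at least 10 normalized counts over the 8 libraries.

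Total RNA of adult mouse retina was sequenced in 4 WT and 4 quadruple KO libraries, named A to D in each genotype. The quadruple KO mice carry knockout alleles of Bcan, Ncan, Tnc and Tnr, which encode the extracellular matrix proteins brevican, neurocan, tenascin-C and tenascin-R, combined by crossing single knockout lines. The WT mice were of the inbred background strain 129S2/SvPasCrl, and adults of both sexes were used in the study. The sex behind each library is not given in the sources used here, and neither is the number of mice behind the pooled retinae of a library, so p-values measure the spread between these libraries.

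In the retina, L-type calcium channels at the ribbon synapses of photoreceptors and bipolar cells let in the calcium that releases glutamate, while P/Q-type and N-type channels act at conventional synapses and T-type channels open near rest. Sodium channels carry the spikes of retinal ganglion cells and of some amacrine and bipolar cells. Alpha2delta subunits sit on the outer face of the membrane and bind matrix proteins such as thrombospondins, and the sodium channel beta subunits have immunoglobulin domains that bind adhesion and matrix proteins, tenascins included.

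The libraries labelled WT B and WT C stood apart from the other 6. Signal recognition particle RNA, counted over 3 genes, took 19.3% and 14.8% of their normalized counts against 6.82% to 8.69% elsewhere, and the 13 mitochondrially encoded mRNAs took 0.402% and 0.341% against 1.28% to 1.64%. An approximate depth, from the spacing of low values, was 23.7 M reads in WT B, 27.2 M in WT C and 36.1 M to 52.5 M in the other libraries. Results that rest on them are therefore given with all 8 libraries and again with WT B and WT C left out. Bcan, Ncan and Tnr were lower in the quadruple KO (limma adjusted p = 2.4e-05, 2.7e-07 and 1.7e-05), and Tnc, with a log2 fold change of -0.07 (limma adjusted p = 0.826), was not. For Tnc, the study reported that part of the sequence was lost in the quadruple KO. It also found no tenascin-C protein in postnatal quadruple KO retina by western blot. A count over the whole gene does not show the loss of a part of it. The tissue label was checked on 5 rod markers, which summed to between 1104028 and 1661571 normalized counts per library.

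Promoter sequences are shown for the 3 genes that the results on individual libraries turn on, chosen after their values were seen. The windows come from RefSeq on the build GRCm38.p6, run 5′ to 3′ on the strand of the gene across its start, and are 300 bases long. Capitals mark CG dinucleotides. The Scn2a window, the first of its 2, lies at chr2:65620519-65620818 on the plus strand, that of Scn7a at chr2:66784861-66785160 on the minus strand and that of Cacna2d2 at chr9:107399630-107399929 on the plus strand.
Scn2a: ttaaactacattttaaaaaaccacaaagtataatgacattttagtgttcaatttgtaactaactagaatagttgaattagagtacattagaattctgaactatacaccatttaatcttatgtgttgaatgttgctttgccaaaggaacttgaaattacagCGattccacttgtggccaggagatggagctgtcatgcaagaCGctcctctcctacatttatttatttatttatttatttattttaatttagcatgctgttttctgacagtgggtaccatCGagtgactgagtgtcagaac
Scn7a: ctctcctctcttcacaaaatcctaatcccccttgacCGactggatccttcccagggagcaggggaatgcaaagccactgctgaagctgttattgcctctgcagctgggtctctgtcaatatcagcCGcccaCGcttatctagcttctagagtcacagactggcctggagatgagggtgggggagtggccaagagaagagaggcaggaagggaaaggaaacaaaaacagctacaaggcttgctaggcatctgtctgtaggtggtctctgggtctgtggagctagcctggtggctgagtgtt
Cacna2d2: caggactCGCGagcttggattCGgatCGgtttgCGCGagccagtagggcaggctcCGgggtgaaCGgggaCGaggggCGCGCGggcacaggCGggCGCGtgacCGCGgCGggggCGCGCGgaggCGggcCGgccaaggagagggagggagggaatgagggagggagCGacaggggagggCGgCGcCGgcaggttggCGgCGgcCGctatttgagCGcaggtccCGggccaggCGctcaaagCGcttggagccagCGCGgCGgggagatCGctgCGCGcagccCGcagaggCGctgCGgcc

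The Cacna2d2 window held 43 CG dinucleotides and the other two shown held 3 each, while the Scn2a window not shown held 9 and a TATAAA. RefSeq windows were matched for 26 of the 33 genes, with 37 windows in all, since some genes have several starts. Their median was 11 CG dinucleotides, against 7 in all 32851 windows. On either strand, TATAAA, the core of the TATA box, was in 2 of the 37 windows (5.41%, against 13.6% of all windows). TAATCC, the core bound by the photoreceptor factor Crx and its relatives, was in 4 of them (10.8%, against 7.06% of all windows), the Scn7a window among them. These matches describe the letters in the windows and do not show binding.

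No channel gene passed the test between the genotypes after adjustment over all genes. In the limma fit of log2(normalized count + 1), 0 of the 33 genes were called at an adjusted p under 0.05, against 77 of 17636 genes tested (0.437%), and their adjusted p-values ran from 0.301 to 0.981. An unadjusted p under 0.05 was reached by 4 of the 33 genes (12.1%), against 16.6% of all genes tested. The 4 quadruple KO values lay entirely to one side of the 4 WT values for 2 genes (6.06%), Scn7a and Cacna2d4, against 9.74% of all genes tested. Single libraries moved these counts and the shares over all genes. At an unadjusted p under 0.05 there were 8 of the 33 genes (24.2%) without WT D, against 34.3% of all genes tested, and 2 (6.06%) without WT B, WT C, quadruple KO A or quadruple KO C, against 7.73%, 8.6%, 10.4% and 7.88%. Without overlap there were 10 genes (30.3%) when WT D was left out, against 24.3% of all genes, 5 (15.2%) when quadruple KO D was, against 13.2%, and 4 (12.1%) when WT A was, against 15.9%. In the quadruple KO, 15 genes had higher and 18 had lower fitted values. The median absolute log2 fold change was 0.10, against 0.19 over all genes. That comparison was not matched for level: the 33 genes had means of at least 88.4 normalized counts, and all genes tested at least 10. The 95% confidence interval of the log2 fold change lay within 0.5 of 0 for 27 genes and within 1 of 0 for 30. For these bulk libraries, a change in the number of cells of a type and a change in RNA per cell cannot be told apart.

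Without WT B and WT C, again 0 of the 33 genes were called, against 99 of 17585 genes tested (0.563%). An unadjusted p under 0.05 was reached by 5 genes, Scn2a, Scn7a, Scn1a, Cacna1c and Cacng4, against 11.6% of all genes. The genotypes did not overlap for these 5 and for Cacna2d4, against 22.3% of all genes. The signs were then 11 higher and 22 lower, and 10 of the 33 genes changed sign.

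**Figure D1:**
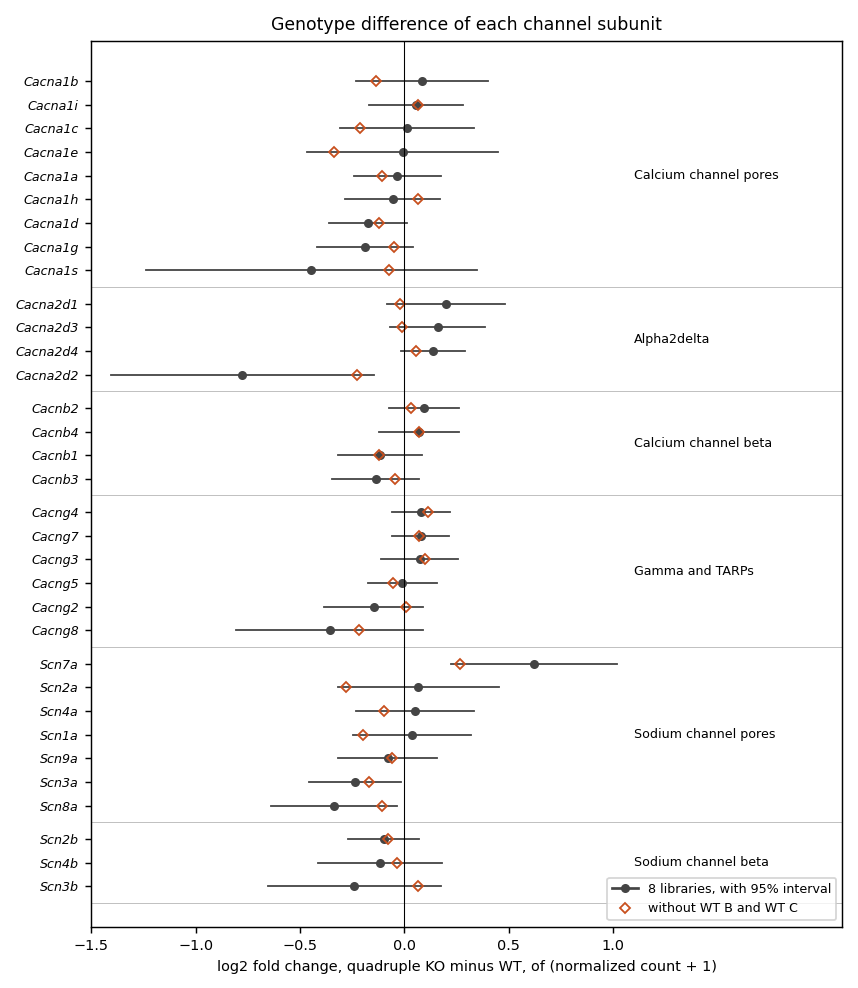
Log2 fold change of the quadruple KO minus WT for each of the 33 genes (x axis, log2 of normalized count + 1), by subunit class. Black points and bars are the fit to 8 libraries with its 95% confidence interval, and open diamonds are the fit without WT B and WT C. Cacna2d2 and Scn7a lie farthest from 0 with 8 libraries, and both move toward 0 without those libraries.

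Among the 9 calcium channel pores described here, the T-type genes had the highest levels and the genotypes were close. Normalized counts per kilobase of exon put Cacna1h first (426 ± 62.5 in WT, 407 ± 20.3 in the quadruple KO, each ± SD with n = 4), then Cacna1g (410.1 ± 51.8 and 359 ± 29.6) and Cacna1i (291 ± 5.27 and 305 ± 43.2). Cacna1h and Cacna1g did not differ beyond their spread in WT. The 3 T-type genes together made up most of the summed level of these 9 genes. Cacna1h alone took 25.2% ± 1.95 of the sum in WT and 25.5% ± 0.748 in the quadruple KO. The presynaptic N-type pore Cacna1b, the L-type pore Cacna1d and the P/Q-type pore Cacna1a followed, at 155, 145 and 122 per kilobase in WT. Neighbours in this order overlapped, and by the longest annotated transcript in place of all exons Cacna1a was the highest of them (245 per kilobase). The L-type pores Cacna1s and Cacna1c and the R-type pore Cacna1e were the lowest, at 76.4, 36.9 and 23.1 per kilobase.

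Cacna1h (ENSMUSG00000024112.17, GRCm39 chr17:25593259-25652764, minus strand) had 4174, 5675, 4474 and 4337 normalized counts in WT A to D and 4520.3, 4747, 4266 and 4302 in quadruple KO A to D. WT B was the highest library and the others overlapped. Its difference did not exceed the spread between libraries (limma log2 fold change -0.06, SE 0.10, adjusted p = 0.754, and without WT B and WT C 0.07, adjusted p = 0.672). Of the 9 pores, 0 had an unadjusted p under 0.05 with 8 libraries, and their median log2 fold change was -0.03 (range -0.45 to 0.08). The lowest p of the class belonged to Cacna1d, which had 2195.5 ± 183 normalized counts over the 4 WT libraries and 1941 ± 115.5 over the 4 quadruple KO libraries (± SD, n = 4), with limma log2 fold change -0.18, SE 0.08, adjusted p = 0.304, and without WT B and WT C -0.12, adjusted p = 0.566. With WT B and WT C left out, 7 of the 9 pores had lower fitted values in the quadruple KO and the class median was -0.11. Cacna1c was then below both WT libraries in each quadruple KO library, at 765 to 928 normalized counts, against 929 in WT A and 967 in WT D (limma log2 fold change -0.21, adjusted p = 0.380).

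Cacna1s, the pore known from skeletal muscle, had the largest coefficient of variation of the 33 genes within the quadruple KO, 38.4%. It had 511, 813, 737 and 414 normalized counts in WT A to D and 605, 519.9, 206 and 567 in quadruple KO A to D. KO C held the lowest value of the 8 libraries, and WT B and WT C the highest (limma log2 fold change -0.45, SE 0.35, adjusted p = 0.454, and without WT B and WT C -0.07, adjusted p = 0.959). Without quadruple KO C alone, the log2 fold change was -0.08. Skeletal muscle markers were low, with Acta1, Ckm and Mylpf summing to between 67.4 and 118.8 normalized counts per library and none of them at 0. Acta1 was higher in WT B and WT C (60.1 and 66.8 normalized counts) than in the other libraries, and the part of muscle RNA in Cacna1s was not tested.

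**Figure D2:**
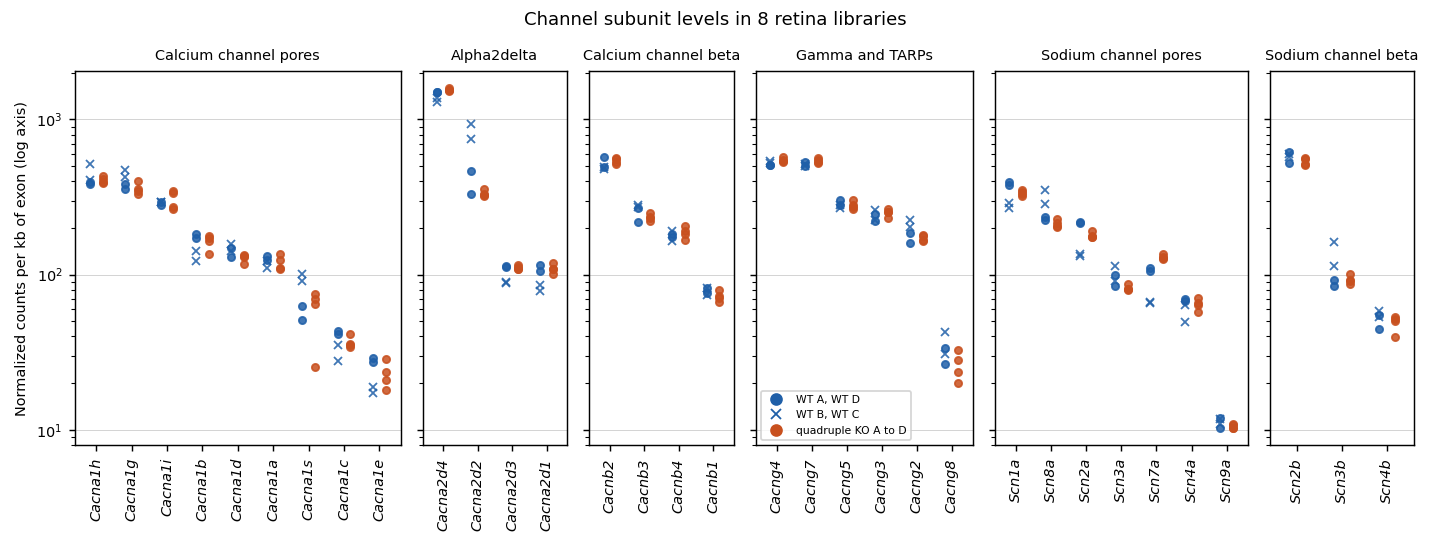
Level of each gene in each library, in normalized counts per kilobase of exon (log axis), by subunit class and ordered by the WT mean. Blue points are WT A and WT D, blue crosses WT B and WT C, and orange points the quadruple KO. Cacna2d4 is the highest gene of the 33 in every library and Scn9a the lowest by its mean.

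Cacna2d4 dominated the alpha2delta subunits of the retina. This subunit is known from photoreceptor terminals and had the highest level per kilobase of all 33 genes, 1421 ± 99.4 in WT and 1561 ± 29.8 in quadruple KO libraries (± SD, n = 4). Cacna2d2 had 619 ± 274 and 334 ± 14.7 per kilobase. Cacna2d3 and Cacna2d1, at 100.3 and 96.5 per kilobase in WT, did not differ from each other beyond their spread.

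Cacna2d4 (ENSMUSG00000041460.17, GRCm39 chr6:119213408-119329368, plus strand) had 14284, 12412, 13214 and 14425 normalized counts in WT A to D and 14849, 14662, 15328 and 14843.5 in quadruple KO A to D. All 4 quadruple KO values exceeded all 4 WT values, and 9.74% of all genes tested had no overlap in 1 direction or the other. Any such gene has p = 0.0286 in the exact two-sided permutation test, the lowest this design can give. The lowest quadruple KO value was close to the highest WT value, and WT B and WT C were the lowest 2 libraries. The difference was small and did not pass the adjusted test (limma log2 fold change 0.14, SE 0.07, adjusted p = 0.312). Without WT B and WT C the log2 fold change was 0.06 (limma, adjusted p = 0.639), with the genotypes still apart. The rod markers, 4 of 5 of which had higher fitted values in the quadruple KO, summed to 1104028 to 1533299 normalized counts over the WT libraries and 1531892 to 1661571 over the quadruple KO libraries, with none called. The part of rod RNA in the Cacna2d4 values was not tested.

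Cacna2d2 (ENSMUSG00000010066.16, GRCm39 chr9:107276811-107406543, plus strand) had the largest difference of the 33 genes, and it rested on WT B and WT C. It had 3695, 7449.7, 5909 and 2612 normalized counts in WT A to D and 2606, 2825, 2566 and 2614.5 in quadruple KO A to D. WT B and WT C were the highest 2 libraries, WT A was above the quadruple KO and WT D lay within it. The means were 4916 ± 2176 normalized counts over the 4 WT libraries and 2653 ± 117 over the 4 quadruple KO libraries (± SD, n = 4), with limma log2 fold change -0.78, SE 0.28, adjusted p = 0.301. Without WT B and WT C the log2 fold change was -0.23 (limma, adjusted p = 0.464).

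Cacna2d1 (ENSMUSG00000040118.16, GRCm39 chr5:16139372-16579509, plus strand), a subunit that binds thrombospondins and gabapentin, had 2558, 1904, 1723 and 2342 normalized counts in WT A to D and 2387, 2634, 2243 and 2416 in quadruple KO A to D. WT B and WT C were the lowest 2 libraries and the other 6 overlapped (limma log2 fold change 0.20, SE 0.13, adjusted p = 0.370). Without them the log2 fold change was -0.02 (limma, adjusted p = 0.941). Cacna2d3 (ENSMUSG00000021991.10, GRCm39 chr14:28626892-29444600, minus strand) had 1128, 906, 889.6 and 1146 normalized counts in WT A to D and 1109, 1129, 1099 and 1178 in quadruple KO A to D. It followed the same order, with WT B and WT C lowest and the other 6 libraries overlapping (limma log2 fold change 0.16, SE 0.10, adjusted p = 0.373, and without WT B and WT C -0.01, adjusted p = 0.959).

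As a share of the alpha2delta class, Cacna2d4 took 64.0% ± 8.63 in WT and 73.8% ± 1.12 in quadruple KO libraries (± SD, n = 4). The share was 53.8% in WT B and 60.3% in WT C, whereas WT A had 68.3%, WT D 73.4% and the quadruple KO libraries 72.3% to 75.1%. Cacna2d2 had 38.9% of the class in WT B and 32.5% in WT C against 15.1% to 21.3% in the other 6 libraries. The composition of the class set WT B and WT C apart, while WT D lay within the range of the quadruple KO.

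**Figure D3:**
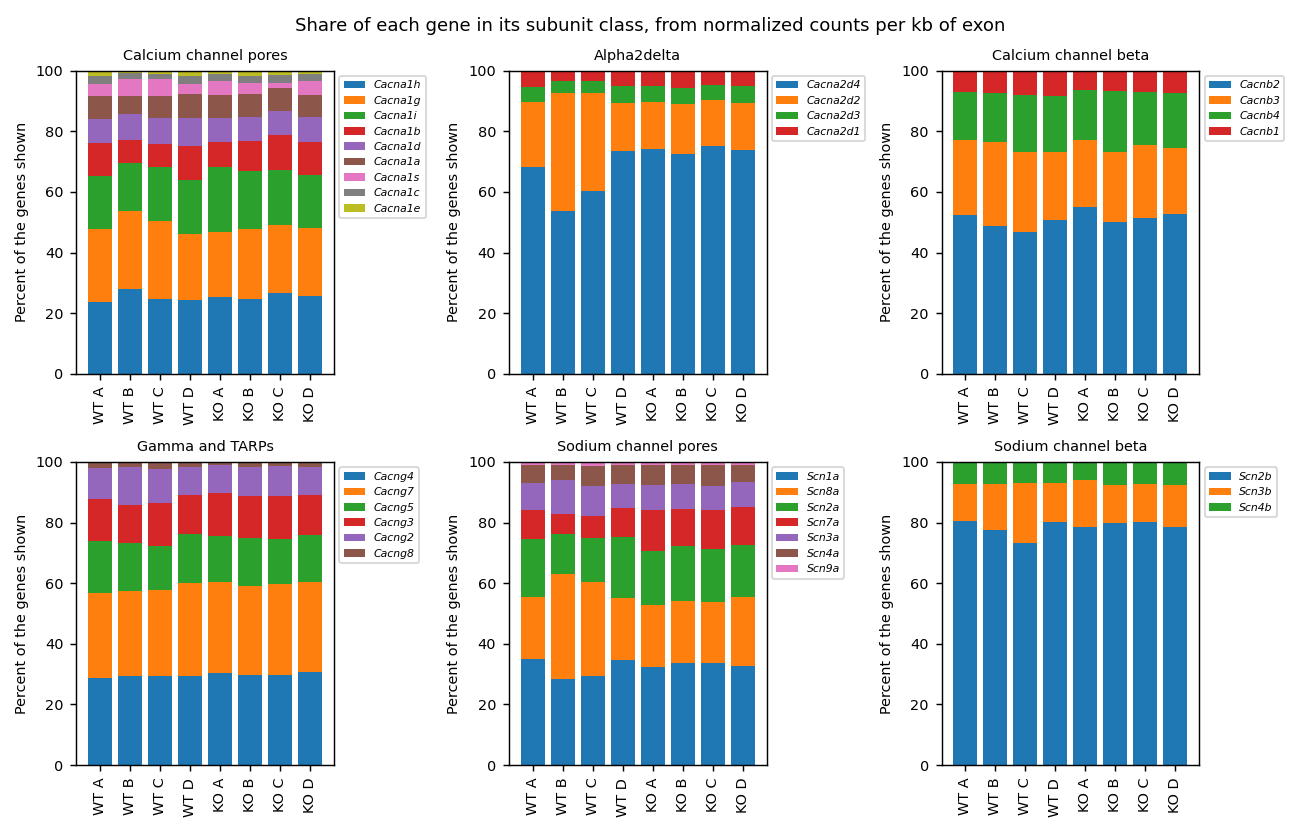
Share of each gene in its subunit class (percent of the summed normalized counts per kilobase of exon) in each of the 8 libraries. The alpha2delta and sodium channel pore panels show WT B and WT C with larger shares of Cacna2d2 and Scn8a than the other 6 libraries.

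The calcium channel beta subunits, which sit inside the cell and carry the pore to the membrane, had no gene with an unadjusted p under 0.05. Cacnb2, the beta subunit known from photoreceptor synapses, had the highest level per kilobase, 510.4 ± 41.8 in WT and 544 ± 23.0 in quadruple KO libraries (± SD, n = 4), or 49.7% ± 2.46 and 52.3% ± 2.09 of the class. It had 8369.9, 7262, 7006 and 7240.4 normalized counts in WT A to D and 8174, 7554.5, 7811 and 8288 in quadruple KO A to D. The genotypes overlapped (limma log2 fold change 0.09, SE 0.07, adjusted p = 0.455, and without WT B and WT C 0.03, adjusted p = 0.880). Cacnb3, Cacnb4 and Cacnb1 followed in that order, at 260.0, 178 and 78.5 per kilobase in WT. The class had a median log2 fold change of -0.02 with 8 libraries and 2 genes of 4 with higher values, a count that was also 2 of 4 without WT B and WT C.

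The gamma subunits, most of which are TARPs that carry AMPA receptors to synapses, were led by Cacng4 and Cacng7. Cacng4 (519.5 ± 15.8 per kilobase in WT, 549 ± 15.9 in the quadruple KO, each ± SD with n = 4) and Cacng7 (512 ± 13.0 and 540.3 ± 15.6) did not differ from each other beyond their spread. Cacng5, Cacng3 and Cacng2 followed at 282, 239 and 192 per kilobase in WT, with log2 fold changes of -0.01, 0.07 and -0.15, and Cacng8 stood far below them. Cacng4 had 2094, 2165, 2224 and 2086 normalized counts in WT A to D and 2273, 2348, 2191 and 2243 in quadruple KO A to D. WT C overlapped the quadruple KO and the other 3 WT libraries lay below it (limma log2 fold change 0.08, SE 0.06, adjusted p = 0.443, and without WT B and WT C 0.11, adjusted p = 0.425). The coefficient of variation of Cacng4 was 3.03% in WT and 2.90% in the quadruple KO, and that of Cacng7 2.55% and 2.89%. Cacng8 was the lowest gene of the class, with 99.4 ± 20.4 normalized counts over the 4 WT libraries and 77.4 ± 16.1 over the 4 quadruple KO libraries (± SD, n = 4; limma log2 fold change -0.36, SE 0.20, adjusted p = 0.333, and without WT B and WT C -0.22, adjusted p = 0.706), and without WT C alone its log2 fold change was -0.23. Of the 8 AMPA receptor pore and auxiliary genes listed with the TARPs, 0 were called, and 4 had higher and 4 lower values. Gria1 had the only values without overlap among these 8, against 9.74% of all genes tested (1719 ± 91.7 for WT and 1913 ± 96.8 for the quadruple KO, ± SD, n = 4, limma log2 fold change 0.15, adjusted p = 0.302, and 0.09, adjusted p = 0.573, without WT B and WT C).

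Among the sodium channel pores, Scn1a, Scn8a and Scn2a, the pores of spiking neurons, held most of the class. Per kilobase of exon their levels in WT were 333 ± 63.1, 274 ± 57.7 and 176 ± 47.7 (SD, n = 4), and in the quadruple KO 336 ± 13.5, 213 ± 11.7 and 179 ± 7.30. Scn1a and Scn8a did not differ beyond their spread in WT, where their order turned between libraries. Scn1a took 34.8% and 34.6% of the class in WT A and WT D, and Scn8a 20.6% in each. In WT B and WT C, Scn1a took 28.5% and 29.2%, and Scn8a 34.6% and 31.1%. Each quadruple KO library had more Scn1a than Scn8a per kilobase, as WT A and WT D did. Scn3a and Scn7a followed at 97.0 and 86.9 per kilobase in WT, and at 81.9 and 130 in the quadruple KO. Scn3a was above Scn7a only in WT B and WT C, and below it in WT A, WT D and each quadruple KO library. By the longest annotated transcript Scn3a was above Scn7a in WT A and WT D as well. The skeletal muscle pore Scn4a stood at 62.5 per kilobase in WT and the sensory neuron pore Scn9a at 11.2.

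Scn7a (ENSMUSG00000034810.8, GRCm39 chr2:66503769-66615367, minus strand), which encodes the sodium-sensing channel Nax rather than a voltage-gated pore, had the lowest p of the 33 genes. It had 818, 494, 489.7 and 787 normalized counts in WT A to D and 1007.5, 951, 967 and 942 in quadruple KO A to D. All 4 quadruple KO values exceeded all 4 WT values, and WT B and WT C were the lowest 2 libraries. Such a lack of overlap, seen for 9.74% of all genes tested, fixes the exact two-sided permutation test at p = 0.0286. That p therefore adds nothing to it. The means were 647 ± 179.6 normalized counts over the 4 WT libraries and 967 ± 29.0 over the 4 quadruple KO libraries (± SD, n = 4), with limma log2 fold change 0.62, SE 0.18, adjusted p = 0.301. The genotypes stayed apart without WT B and WT C, at 787 and 818 normalized counts against 942 to 1007, and the log2 fold change was 0.27 (limma, adjusted p = 0.140). Scn7a took 8.27% ± 1.66 of the class in WT and 12.8% ± 0.626 in the quadruple KO, and 9.64% and 9.74% in WT A and WT D.

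Scn2a (ENSMUSG00000075318.14, GRCm39 chr2:65451102-65597795, plus strand) and Scn1a (ENSMUSG00000064329.14, GRCm39 chr2:66101122-66271572, minus strand) changed sign with the WT libraries used. Scn2a had 2837, 1727, 1769 and 2808 normalized counts in WT A to D and 2272, 2469.9, 2304 and 2271 in quadruple KO A to D. The quadruple KO values lay between WT B and WT C below and WT A and WT D above. With 8 libraries the difference was within the spread (limma log2 fold change 0.07, SE 0.17, adjusted p = 0.830). When WT B and WT C were left out it was -0.28 (limma, adjusted p = 0.0738), the lowest adjusted p of any channel gene in any fit. Scn1a had 4596, 3333, 3125 and 4353 normalized counts in WT A to D and 3723, 4092, 3934 and 3838 in quadruple KO A to D. It showed the same order, with limma log2 fold change 0.04, SE 0.13, adjusted p = 0.880 for 8 libraries and -0.20 (limma, adjusted p = 0.226) without WT B and WT C.

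Scn8a (ENSMUSG00000023033.15, GRCm39 chr15:100767739-100943819, plus strand) had 3711, 5526, 4529.8 and 3533 normalized counts in WT A to D and 3209, 3401, 3248 and 3615 in quadruple KO A to D. WT B and WT C were the highest 2 libraries, and KO D lay between WT D and WT A (limma log2 fold change -0.34, SE 0.13, adjusted p = 0.301, and without WT B and WT C -0.11, adjusted p = 0.517). Scn3a had 1299 ± 166 normalized counts over the 4 WT libraries and 1097 ± 44.6 over the 4 quadruple KO libraries (± SD, n = 4), with limma log2 fold change -0.24, SE 0.10, adjusted p = 0.301. Only KO B, at 1163 normalized counts, overlapped the WT range of 1134 to 1515, and without WT B and WT C the log2 fold change was -0.17 (limma, adjusted p = 0.435). Scn4a and Scn9a had log2 fold changes of 0.05 and -0.08, with overlap between the genotypes. The class median was 0.04 with 8 libraries, 4 genes higher and 3 lower, and -0.11 without WT B and WT C, 1 higher and 6 lower.

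Markers of ganglion cells, which use these pores to spike, were summed beside them. All 8 markers had lower fitted values in the quadruple KO without WT B and WT C, and with 8 libraries 6 of 8 did, 5 of them with an unadjusted p under 0.05 and 0 called, against 16.6% and 0.437% of all genes tested. Their summed level was 28650 to 33086 normalized counts over the WT libraries and 23776 to 27968 over the quadruple KO libraries, and none was at 0. Nefl was the largest part of this sum, at 15589 to 17480 in WT and 12746 to 14807 in the quadruple KO. Pou4f1 and Thy1 had higher fitted values in the quadruple KO with 8 libraries (log2 fold changes 0.29 and 0.05). The part of ganglion cell RNA in the sodium channel values was not tested.

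Scn2b, Scn3b and Scn4b, the sodium channel beta subunits described here, had lower fitted values in the quadruple KO with 8 libraries, none past the adjusted test. Per kilobase of exon, Scn2b had 577 ± 39.6 in WT libraries and 538 ± 29.7 in quadruple KO libraries (± SD, n = 4). Scn3b and Scn4b were lower, at 113 and 52.8 per kilobase in WT.

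Scn2b (ENSMUSG00000070304.13, GRCm39 chr9:45029080-45041368, plus strand), whose product binds tenascins, had 2863, 2649, 2792 and 2445 normalized counts in WT A to D and 2379, 2647, 2605 and 2397 in quadruple KO A to D. The genotypes overlapped (limma log2 fold change -0.10, SE 0.08, adjusted p = 0.441, and without WT B and WT C -0.08, adjusted p = 0.703).

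Scn3b (ENSMUSG00000049281.17, GRCm39 chr9:40179378-40203052, plus strand) had 664, 809, 1159.6 and 602 normalized counts in WT A to D and 726, 648, 622 and 657 in quadruple KO A to D. WT C was the highest library, followed by WT B (limma log2 fold change -0.24, SE 0.18, adjusted p = 0.443, and without WT B and WT C 0.07, adjusted p = 0.771). Leaving out WT C alone gave a log2 fold change of -0.05. Scn4b (ENSMUSG00000046480.7, GRCm39 chr9:45049595-45065452, plus strand) had 281, 269, 296 and 228 normalized counts in WT A to D and 201, 272, 264 and 256 in quadruple KO A to D. KO A was the lowest library and the rest overlapped (limma log2 fold change -0.12, SE 0.13, adjusted p = 0.602, and without WT B and WT C -0.04, adjusted p = 0.943). Leaving out KO A alone gave -0.02. The median of the 3 genes was -0.12 with 8 libraries and -0.04 without WT B and WT C, where Scn3b had the only higher value.

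**Figure D4:**
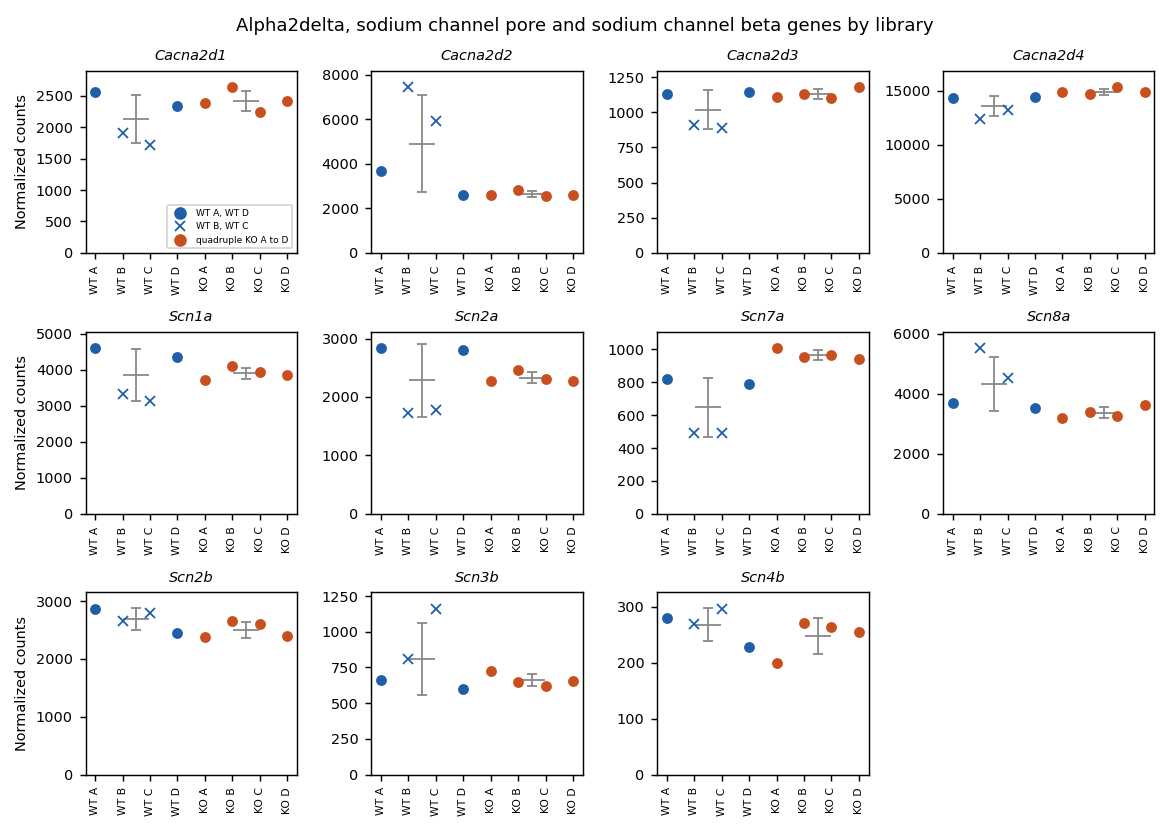
Normalized counts of the 4 alpha2delta genes, 4 sodium channel pores and 3 sodium channel beta genes in each library (y axes start at 0). Grey bars are the mean ± SD of the 4 libraries of a genotype. WT B and WT C (crosses) lie above the other libraries in Cacna2d2, Scn8a and Scn3b and below them in Cacna2d1, Cacna2d3, Cacna2d4, Scn1a, Scn2a and Scn7a.

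Neither the pores nor the auxiliary subunits included a called gene. The 16 pores had a median log2 fold change of -0.02 (7 higher, 9 lower) and the 17 auxiliary genes one of -0.01 (8 higher, 9 lower). Without WT B and WT C the medians were -0.11 (3 higher, 13 lower) and -0.01 (8 higher, 9 lower). Over all genes the median was below 0.01 in size with 8 libraries and 0.01 without WT B and WT C. The difference between the pore and auxiliary genes was not tested.

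The spread within WT was larger than within the quadruple KO for most channel genes. The median coefficient of variation of the 33 genes was 12.8% in WT and 5.55% in the quadruple KO. Over all genes, which were not matched for level, it was 18.3% and 7.26%. Of the 33 genes, 24 had a larger coefficient of variation in WT. Both WT B and WT C lay above all other libraries for 7 genes (21.2%) and below them for 6 (18.2%), against 28.2% and 27.6% of all genes tested. Their displacement from WT A and WT D went with the GC content of the exons across the 33 genes (Pearson's r = 0.43, Spearman's rho = 0.43), as it did across 17554 genes (r = 0.38, rho = 0.41). These are correlations across genes, which share the 4 WT libraries and are not independent replicates. Cacna2d2 had exons with a GC content of 55.8% and a log2 displacement of 1.08. Scn2a, with 42.2%, and Scn7a, with 40.4%, were displaced by -0.69 and -0.70. Genes of like GC content differed from these. Scn3a (40.4%) was displaced by 0.14, Cacnb4 (41.4%) by 0.002 and Cacna1i (59.4%) by 0.02. A relation of the displacement to the promoter windows was not tested.

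**Figure D5:**
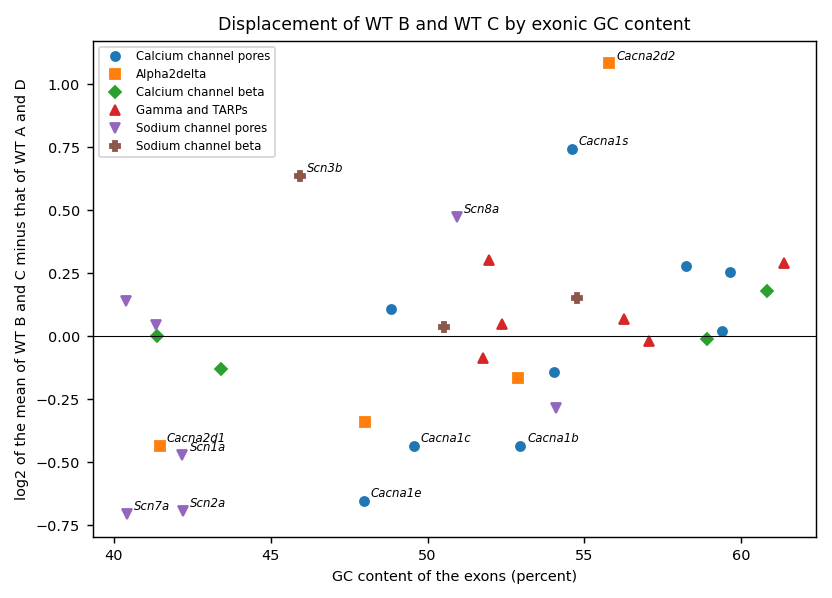
Displacement of WT B and WT C (y axis, log2 of their mean normalized count + 1 minus that of WT A and WT D) against the GC content of the exons (x axis, percent) for the 33 genes, by subunit class. Genes displaced by more than 0.4 are named; Cacna2d2 is the highest at 1.08 and Scn7a the lowest at -0.70.

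Partners of these channels were also counted. Of 22 calcium channel partners tested, among them the calcium-binding proteins, calmodulins and active zone scaffolds, 0 were called, 8 had higher and 14 lower values, and the median log2 fold change was -0.11 with 8 libraries and 0.02 without WT B and WT C. Cachd1, an alpha2delta-like protein, had 681 ± 53.6 normalized counts on average in WT against 567 ± 33.6 in quadruple KO libraries (± SD, n = 4; limma log2 fold change -0.26, adjusted p = 0.301, and -0.17, adjusted p = 0.439, without WT B and WT C). Of 15 sodium channel partners tested, 0 were called, with 10 higher and 5 lower, and 3 higher and 12 lower without WT B and WT C. Sptbn4, the spectrin of the axon initial segment, had the only values without overlap among these 15, against 9.74% of all genes tested. It had 2524 ± 245 normalized counts in WT and 2004 ± 111 in quadruple KO libraries (± SD, n = 4; limma log2 fold change -0.33, adjusted p = 0.301, and without WT B and WT C -0.23, adjusted p = 0.306).

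Of 9 extracellular ligands and partners of the alpha2delta and sodium channel beta subunits, 1 was called, the targeted gene Tnr, against 0.437% of all genes tested. Fitted values were lower in the quadruple KO for 7 of them and higher for 2. These were Ptprz1 (limma log2 fold change 0.33, adjusted p = 0.317) and Comp (0.14, adjusted p = 0.694). Leaving out WT B and WT C gave 6 lower and 3 higher. The higher ones were then Ptprz1 (limma log2 fold change 0.003, adjusted p = 0.990), Comp (0.30, adjusted p = 0.641) and Tnc (0.25, adjusted p = 0.408). Thrombospondins 3 and 4, ligands of Cacna2d1, had lower values without passing the adjusted test. Thbs4 had 106 ± 13.7 normalized counts on average in WT against 66.8 ± 15.8 in the quadruple KO without overlap, and Thbs3 65.5 ± 12.3 and 32.7 ± 16.3 (± SD, n = 4; limma adjusted p = 0.301 for both). Their log2 fold changes were -0.68 and -1.07 with 8 libraries, and -0.71 and -1.09 without WT B and WT C (limma adjusted p = 0.291 and 0.295). Lrp1, a receptor that binds alpha2delta subunits, had 10835 ± 1799.7 and 7949.7 ± 539 (± SD, n = 4; limma adjusted p = 0.301), again without overlap. Its log2 fold change was -0.43 with 8 libraries and -0.23 without WT B and WT C. The limma fit did not call Lrp1. The study, by its own differential expression test, reported Lrp1 as significantly downregulated in the quadruple KO retina.

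None of the 33 channel genes had a called gene within 1 Mb. Scn3a, Scn2a, Scn1a, Scn9a and Scn7a lie side by side at GRCm39 chr2:65287462-66615367. Scn7a alone of these 5 had higher values without overlap in the quadruple KO, while its neighbour Scn9a had a log2 fold change of -0.08 (limma adjusted p = 0.655). Exons of several genes overlap exons annotated on the other strand. Among them are Cacna1d with Chdh (1477 bases), Cacnb4 with A430018G15Rik (1433 bases) and Cacna1s with Gm37759 (1334 bases). The libraries were directional, but whether counting used the strand is not given in the sources used here. The part of opposite-strand reads in these values is therefore not known.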

How the data were processed

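The authors isolated total RNA from pooled retinae, made directional total RNA libraries from 450 ng of RNA and sequenced them on a NextSeq platform. Per the labels' processing notes and the study's methods, trimming was by Trim Galore 0.6.7, and reads were then aligned with STAR 2.7.9a to GRCm39 and quantified with Salmon 1.5.2. The deposited values are normalized counts, the estimated counts that the authors divided by the normalization factors of DESeq2 1.32.0. Deposited fold changes and p-values of the authors were not used. Libraries were mapped to genotypes by column and sample names.

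Values were tested as log2(normalized count + 1) for 17636 genes with a mean of at least 10, with limma 3.58.1 in R 4.3.3 (lmFit, eBayes with trend), without covariates, and adjusted by the Benjamini-Hochberg method over all of them. Adjusted p-values under 0.05 were taken as calls. The design had also named a count model, which does not apply since whole reads were not recovered: 47.6% to 68.8% of low values per library lay within 0.1 of a whole step. Depths from these steps are therefore approximate. Levels between genes were divided by the union of annotated exons (GENCODE, GRCm39). Single genes had two-sided exact permutation tests on normalized counts. The fit was tested on simulated data. Python 3.11.15, pandas 2.3.3 and matplotlib 3.10.9 were used.

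The channel genes and lists were chosen with earlier results of these data known. Of the 36 rows with such symbols, 3 are not reported here. Values per library were to be given for genes called or without overlap, the alpha2delta and sodium beta genes, and the highest gene of each class. Those of Cacna1s, Cacna1c, Scn2a, Scn3a and Scn8a, and the single partner genes, were added after their values were seen. The alternatives were other normalizations, filters, pseudocounts, variance models and thresholds, array weights, the library letter as a replicate block, and libraries left out. Class shares without WT B and WT C were added after the data were seen.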

Additional observations from a re-analysis of the deposited data

Results flagged for a closer look

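In groups of 4 libraries, a value was singled out where its gap to the nearest other library exceeded Dixon's 95% critical share of the group's range. This held for 2 of 66 groups, and chance gives about 1 in 20. Scn2a had 2469.9 normalized counts in quadruple KO B, against 2271 to 2304 in the other quadruple KO libraries. Scn3a had 1163 normalized counts in quadruple KO B, against 1067 to 1079 in the others.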

How the results depend on the processing

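No channel gene was called in any fit run, with the lowest adjusted p at 0.0738. The signs of 18 genes held in every alternative and 15 changed in at least 1. Log2 fold changes of the opposite sign were, with array weights, Cacna1b -0.0756, Cacna1c -0.158, Cacna1h 0.0637, Cacna2d1 -0.0103, Cacnb2 -0.0113, Scn1a -0.179, Scn2a -0.224, Scn4a -0.0636; without WT B and WT C, Cacna1b -0.135, Cacna1c -0.212, Cacna1h 0.0663, Cacna2d1 -0.0186, Cacna2d3 -0.0112, Cacng2 0.00599, Scn1a -0.200, Scn2a -0.278, Scn4a -0.0956, Scn3b 0.0674; and with quantile normalization, Cacna1e 0.00636, Cacng5 0.00555. Leaving out each library in turn gave log2 fold changes that crossed 0 for Cacna1e -0.138 to 0.113, Cacng5 -0.0477 to 0.0226, Cacna1c -0.120 to 0.0939, Cacna1h -0.106 to 0.0422, Scn1a -0.0585 to 0.127, Scn2a -0.0535 to 0.185, Scn4a -0.0587 to 0.106, Cacna1b -0.0237 to 0.172, Cacna1a -0.0966 to 0.00953, Cacna1i -0.0108 to 0.122. Levels by the longest annotated transcript put Cacng7 above Cacng4 (643 and 561 per kilobase in WT), Cacng3 above Cacng5 (332 and 311) and Cacna2d1 above Cacna2d3 (236 and 227), and the WT share of Cacnb2 was 66.6% of its class. Of 114 class medians, 4 moved by more than the spread between libraries. For all these, the cause was not tested beyond the change in libraries or weights itself.

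Over all genes, 143 were called with array weights, which were 0.164 for WT B and 0.156 for WT C, and 54 to 89 when 1 library was left out. With 1 library left out, 2 to 8 channel genes (6.06% to 24.2%) had an unadjusted p under 0.05, against 7.73% to 34.3% of all genes tested in these fits, and 2 to 10 (6.06% to 30.3%) had no overlap, against 11.1% to 24.3%. Both highest counts came without WT D. Without WT B and WT C, 6 had no overlap, against 22.3% of all genes. The fit with the letter as a replicate block called 51 genes and 0 channel genes, with 4 at an unadjusted p under 0.05. Same-letter libraries had residual correlations of -0.01, -0.11, 0.10 and 0.05, so the letters were not taken to pair them. DESeq2 was not run, as whole counts were not recovered. Cacng8 and Scn9a had the fewest normalized counts of the 33 genes (means of 88.4 and 138 over the 8 libraries), while the largest SE of a log2 fold change, 0.35, was that of Cacna1s.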
